A study of Mus musculus with 64 samples.

Results

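MHC class I molecules display short peptides from the cell's own cytosol, viral peptides included, to CD8+ T cells. Each is a heavy chain, such as H2-K1 or H2-D1 in the mouse, bound to beta-2-microglobulin (B2m). Peptides enter the endoplasmic reticulum through the transporter Tap1-Tap2, are trimmed by the aminopeptidase Erap1, and are loaded and edited with tapasin (Tapbp) and the tapasin-related protein Tapbpl, while the NOD-like receptor Nlrc5 acts as a transactivator of class I genes. These 10 genes, H2-K1, H2-D1, H2-T23 (the non-classical heavy chain Qa-1), B2m, Tap1, Tap2, Tapbp, Tapbpl, Nlrc5 and Erap1, were chosen by symbol for their role in presentation, and all 10 of them were found among the 25239 genes of the count table. All 10 passed the filter on low counts in each fit.

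The RNA came from tdTomato+ microglia sorted from single retinas of female and male Cx3cr1CreER:R26-tdTomato +/- mice at 3, 9 and 18 months of age, on a C57BL/6J background and given tamoxifen eye drops to switch on the label. Eyes were naive, or were taken at day 12 or day 28 after an intravitreal dose of AAV2 without a transgene (1e10 genome copies per eye), and 600 sorted cells went into each library. Per the study's methods, this vector carried an oligonucleotide sequence that inhibits TLR9, a sensor of viral DNA. The Cre recombinase is driven by the Cx3cr1 promoter, which is also active in other myeloid cells, and naive eyes carry the same alleles but no injection is labelled for them, so that the virus and the injection itself cannot be told apart. Of 63 libraries in the batch-corrected table, 62 were used (19 naive, 22 at day 12 and 21 at day 28, in 18 groups of 2 to 4), and 1 library of 18-month females at day 28 was left out because the rule that chose the members excludes its column.

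Depth was 1468478 to 9836173 corrected counts per library (median 4188992). On unscaled totals, 3 counts therefore correspond to 0.305 CPM in the deepest and 2.04 CPM in the shallowest library. This floor covers counting error only. Microglial markers were measured in every library (12 of 12 listed genes), with a summed level of 35400 to 55800 CPM in naive, 12600 to 41000 CPM at day 12 and 22700 to 51100 CPM at day 28. The 10 measured T cell markers summed to 0 to 206 CPM in naive libraries, 4.18 to 497 CPM at day 12 and 21.3 to 235 CPM at day 28, and the 6 NK cell markers to 0 to 204, 2.61 to 641 and 1.58 to 289 CPM. The median T cell sum was 4.7 CPM in naive, 145 CPM at day 12 and 86.8 CPM at day 28, and the median NK cell sum 0.567, 134 and 55.3 CPM. The 6 monocyte markers had medians of 29.8, 65.6 and 8.27 CPM, with ranges of 4.4 to 121, 5.74 to 1090 and 1.06 to 62.2 CPM, and the highest value was that of library 4 of the 18-month females at day 12. These cells express class I genes as well, and their part in the results below was not tested. In bulk RNA, a change in the share of a cell type and a change in RNA per cell cannot be told apart. Photoreceptor markers, which come from neighbouring cells, summed to 623 to 3620 CPM in naive and 472 to 3140 CPM at day 12.

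Several libraries stood apart. The 18-month female day 12 libraries 1 and 2, both of the first collection day, held T cell marker sums of 4.18 and 15.3 CPM and microglial sums of 41000 and 36700 CPM, whereas libraries 3 and 4 of that group, from the second day, held 497 and 237 CPM of T cell markers and 21600 and 21700 CPM of microglial markers. The 18-month female naive library 1 and the 9-month female naive library 1 held the 2 highest naive levels of H2-K1, H2-D1, H2-T23, Tap2, Tapbp and Tapbpl, but not of B2m, Nlrc5 or Erap1, and the former also held the highest naive level of Tap1. They also had the fewest genes detected of all libraries used, 11045 and 10505. The next lowest was 11087, in 3-month male day 12 library 2, and the other naive libraries had at least 12365. Each was the only naive library of its group from the first collection day. Whether the low gene number bears on their class I levels was not tested. The 18-month male library 4 at day 28 is titled day 28 but carries a day 12 time-point label, and it was kept at day 28. Counts of calls that moved without 1 of these libraries are given below with and without it.

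The proximal promoters of 3 members hold the same pair of elements, shown here because H2-K1, H2-D1 and B2m encode the 2 kinds of chain of the class I molecule. RefSeq (GRCm38.p6) gives an upstream window of 250 bases for 7 of the 10 genes, and the search covered 5 motifs on both strands, with no overlap between matches in the windows printed. Every stretch below runs 5′ to 3′ on the gene's strand, from a CRE core (TGACG) to a Y box (ATTGG), and these motifs are in capitals. Positions count back from the transcription start, with -1 the base before it.
H2-K1, chr17:34000359-34000388, minus strand: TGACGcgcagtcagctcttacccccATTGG
H2-D1, chr17:35262993-35263022, plus strand: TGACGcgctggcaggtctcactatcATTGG
B2m, chr2:122147609-122147638, plus strand: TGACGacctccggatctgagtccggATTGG

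In all 3 of these genes the starts of the 2 elements lie 25 bases apart. This spacing was read from the same 3 genes, of which H2-K1 and H2-D1 are paralogs, and it is a description only. The CRE core starts at -41 in H2-K1 (-55 from a second annotated start), at -101 in H2-D1 and at -78 in B2m. The H2-D1 stretch lies inside the gene as GENCODE M21 draws it (chr17:35262730-35267499), which begins further upstream than the RefSeq start. The interferon-stimulated response element core GAAANNGAA was found in B2m at -139, and on the other strand in H2-T23 at -123 and in Erap1 at -9, against 7.13% of all windows. The NF-kB motif GGGNNTTCC was found in H2-K1 at -111 and in H2-D1 at -171 (4.98% of all windows), and the GAS motif TTCNNNGAA in none of the 7 (7.02% of all windows). ATTGG, with or without the other motif, was present in 6 of the 7 genes (33.8% of all windows) and TGACG in 4 (17.8%). The upstream bases of B2m, the light chain of every class I molecule, with all matches in capitals, are these.
B2m, chr2:122147437-122147686, plus strand: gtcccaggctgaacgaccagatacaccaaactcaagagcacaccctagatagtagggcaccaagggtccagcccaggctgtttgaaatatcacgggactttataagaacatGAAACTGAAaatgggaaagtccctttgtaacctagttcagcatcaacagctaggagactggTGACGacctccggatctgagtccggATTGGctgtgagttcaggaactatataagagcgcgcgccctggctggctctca

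The members lie on 5 chromosomes in GRCm38, with 6 of them on chromosome 17 in or near the H2 complex (H2-K1, H2-D1, H2-T23, Tap1, Tap2 and Tapbp). Levels between genes were compared per kilobase of exon. B2m was the most abundant member in naive microglia, with a median of 10970 CPM per kb, followed by H2-D1 at 240.1 and H2-K1 at 202 CPM per kb. Nlrc5 was the lowest, at 0.623 CPM per kb in naive microglia and 8.83 CPM per kb at day 12. H2-K1 stood at 1085 and H2-D1 at 868 CPM per kb at day 12, in the opposite order to naive. The 10 genes held a median of 1.18% of all counts in naive libraries, 3.01% at day 12 and 2.32% at day 28, with B2m making up 84.5%, 78.9% and 80.8% of that share.

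**Figure D1:**
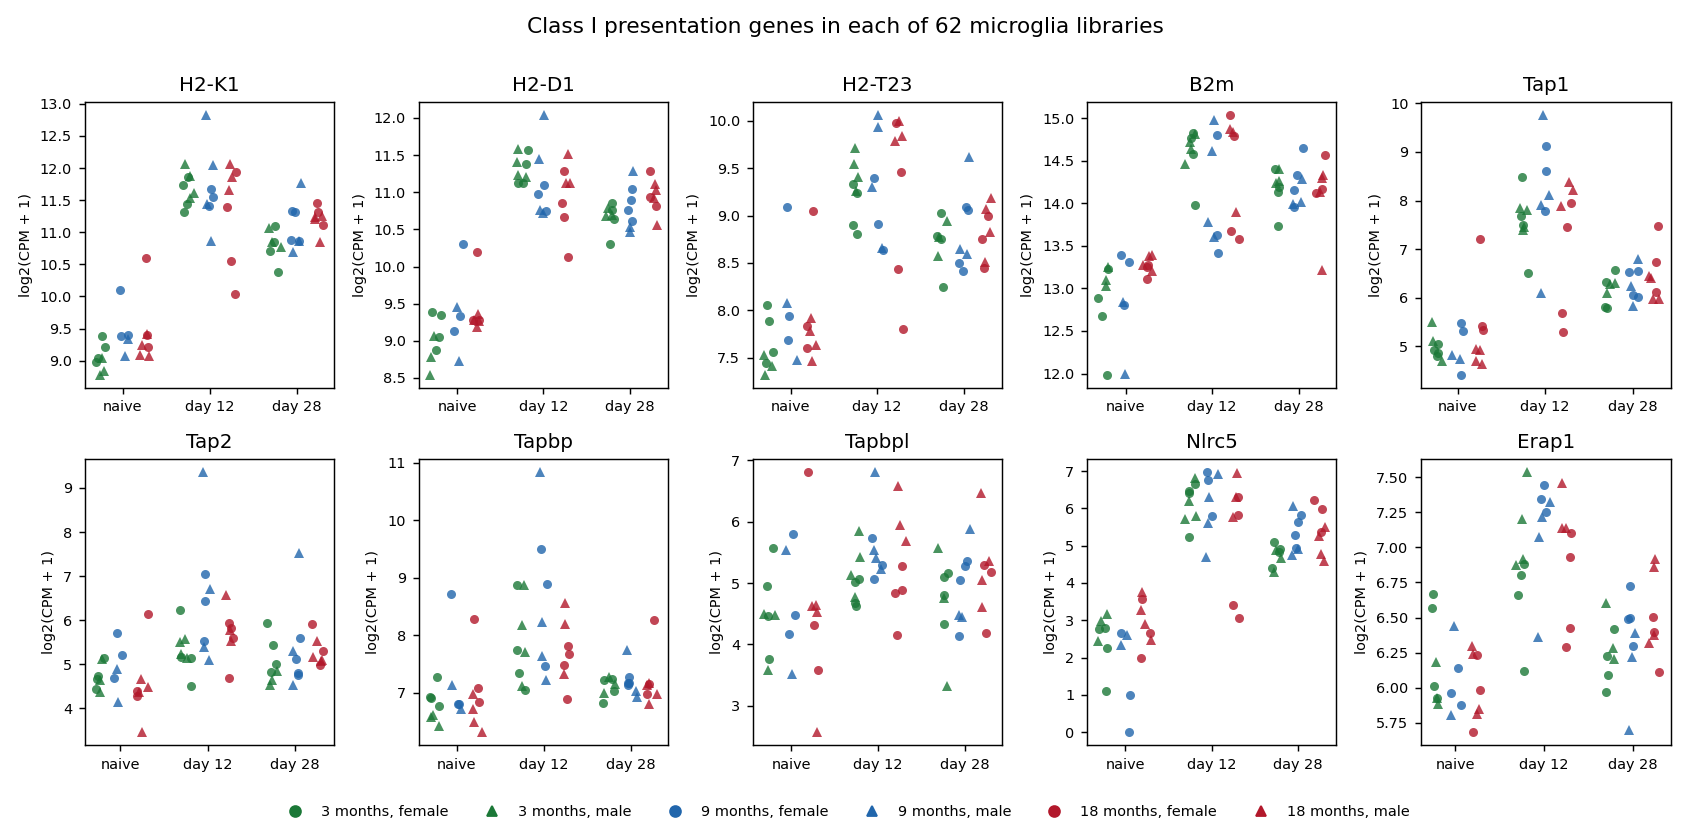
Level of each of the 10 class I presentation genes in 62 microglia libraries, as log2(CPM + 1) on the vertical axis, by day on the horizontal axis, with age in colour and sex by marker shape (circles female, triangles male). Each point is 1 library; for B2m all 22 day 12 libraries lie above all 19 naive libraries, whereas for Tapbpl only 1 of the 22 does.

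The first question was how class I genes differed between microglia at day 12, the peak of inflammation, and naive microglia. At day 12, 20 of the 60 combinations of a member with an age and sex group passed a test against a 2-fold change (edgeR glmTreat, adjusted p under 0.05), all 20 of them upward, against 2.3% of all genes tested. By the plain quasi-likelihood test 34 of 60 passed, again all upward, against 8.77% of all genes. The median log2 fold change over the 60 values was 1.55, beside 0.03 over all genes, and 58 of the 60 values were above 0. In 42 of the 60, every day 12 library lay above every naive library of its group, against 11.4% of all genes. By the test against a 2-fold change the members called numbered 5 in 3-month females (2.43% of all genes called), 6 in 3-month males (3.77%), 3 in 9-month females (2.52%), 1 in 9-month males (0.954%) and 5 in 18-month males (4.16%). By the plain test they numbered 7 (13.6%), 8 (15%), 5 (8.76%), 4 (2.24%) and 10 (13.3%) in the same order. In 18-month females no member was called by either test (0% of all genes), and DESeq2 called none of them. There, 5 of the 10 had an unadjusted p under 0.05 in edgeR's plain test, beside 1403 of the 11159 genes tested. Day 12 and day 28 were compared with the same naive libraries.

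The classical heavy chains, which carry the peptide, rose in every age and sex group but the 18-month females by the plain test. By the test against a 2-fold change H2-K1 rose in 4 groups and H2-D1 in 3 (both sexes at 3 months and males at 18 months). H2-K1 in 3-month females was at 505, 528, 595 and 665 CPM in naive and 3416, 2782, 3722 and 2551 CPM at day 12. In 3-month males it was at 439, 527 and 457 CPM in naive and 3134, 4298, 2961 and 3738 CPM at day 12. The groups did not overlap in either sex, and the log2 fold change was 2.43 ± 0.22 (SE; edgeR glmTreat, adjusted p = 1.75e-05) in females and 2.89 ± 0.17 (adjusted p = 1.47e-07) in males.

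At 9 months, H2-K1 in females was at 1102, 664 and 673 CPM in naive and 3280, 2706 and 2996 CPM at day 12. In males it was at 536 and 646 CPM in naive and 7293, 1864, 2764 and 4229 CPM at day 12. Male day 12 libraries spread widely, library 1 being the highest and library 2 the lowest, but none overlapped the 2 naive libraries. The log2 fold change was 1.89 ± 0.28 in females (adjusted p = 0.0312) and 2.77 ± 0.59 in males, where it passed the plain test but not the test against a 2-fold change (edgeR glmTreat, adjusted p = 0.091).

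At 18 months, H2-K1 in males was at 541, 681, 604 and 534 CPM in naive and 3243, 3698 and 4295 CPM at day 12, a log2 fold change of 2.68 ± 0.21 (edgeR, adjusted p = 7.78e-06). In females it was at 1543, 675 and 591 CPM in naive and 1501, 1045, 3943 and 2688 CPM at day 12. Here the groups overlapped: day 12 libraries 1 and 2 lay below naive library 1, while libraries 3 and 4 lay above all 3 naive libraries. The log2 fold change was 1.32 ± 0.48 and no gene of the 11159 tested in this group passed either test.

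H2-D1, the second classical heavy chain measured here, ranged over 372 to 1261 CPM in naive libraries (median 619), between 1117 and 4227 CPM in day 12 libraries (median 2239), and between 1259 and 2496 CPM in day 28 libraries (median 1771). It passed the test against a 2-fold change in 3 of 6 groups and the plain test in 5, with a log2 fold change of 2.54 ± 0.17 in 3-month males as the highest and 1.16 ± 0.35 in 18-month females as the lowest. H2-T23, which presents leader peptides of other class I chains to NK and CD8+ T cell receptors, ranged over 159 to 544 CPM in naive libraries (median 205), between 223 and 1070 CPM in day 12 libraries (median 657), and between 302 and 783 CPM in day 28 libraries (median 436). It passed the test against a 2-fold change in males at 3 months (2.06 ± 0.17) and at 18 months (2.19 ± 0.22), and it also passed the plain test in 3-month females, at 1.32 ± 0.22. Windows of 75 bases, about the length of a read, are shared with transcripts of other genes for 1.55% of H2-K1, 6.9% of H2-D1 and 13.1% of H2-T23, so that some of their reads could belong to a paralog.

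B2m, the light chain, ranged over 4058 to 10790 CPM in naive libraries (median 9433), between 10940 and 33710 CPM in day 12 libraries (median 25220), and between 9481 and 25670 CPM in day 28 libraries (median 18720). All 22 day 12 libraries lay above all 19 naive libraries. The log2 fold change was 1.79 ± 0.26 in 3-month females (edgeR glmTreat, adjusted p = 0.0255) and 1.52 ± 0.12 in 3-month males (adjusted p = 0.00182), and it did not pass that test in the other groups, where it lay between 0.89 and 1.87. B2m is short (860 bases of exon), and in libraries with a small share of counts on genes under 1 kb it was low: the naive libraries of 3-month female 4 and 9-month male 2 held 1.91% and 1.96% of counts on such genes and 4058 and 4084 CPM of B2m, and the 18-month male day 28 library with the differing day labels held 2.98% and 9481 CPM. B2m is itself among the genes under 1 kb, so that its own counts are part of that share and the link is partly built in. The part of gene length in the B2m values was not tested.

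**Figure D2:**
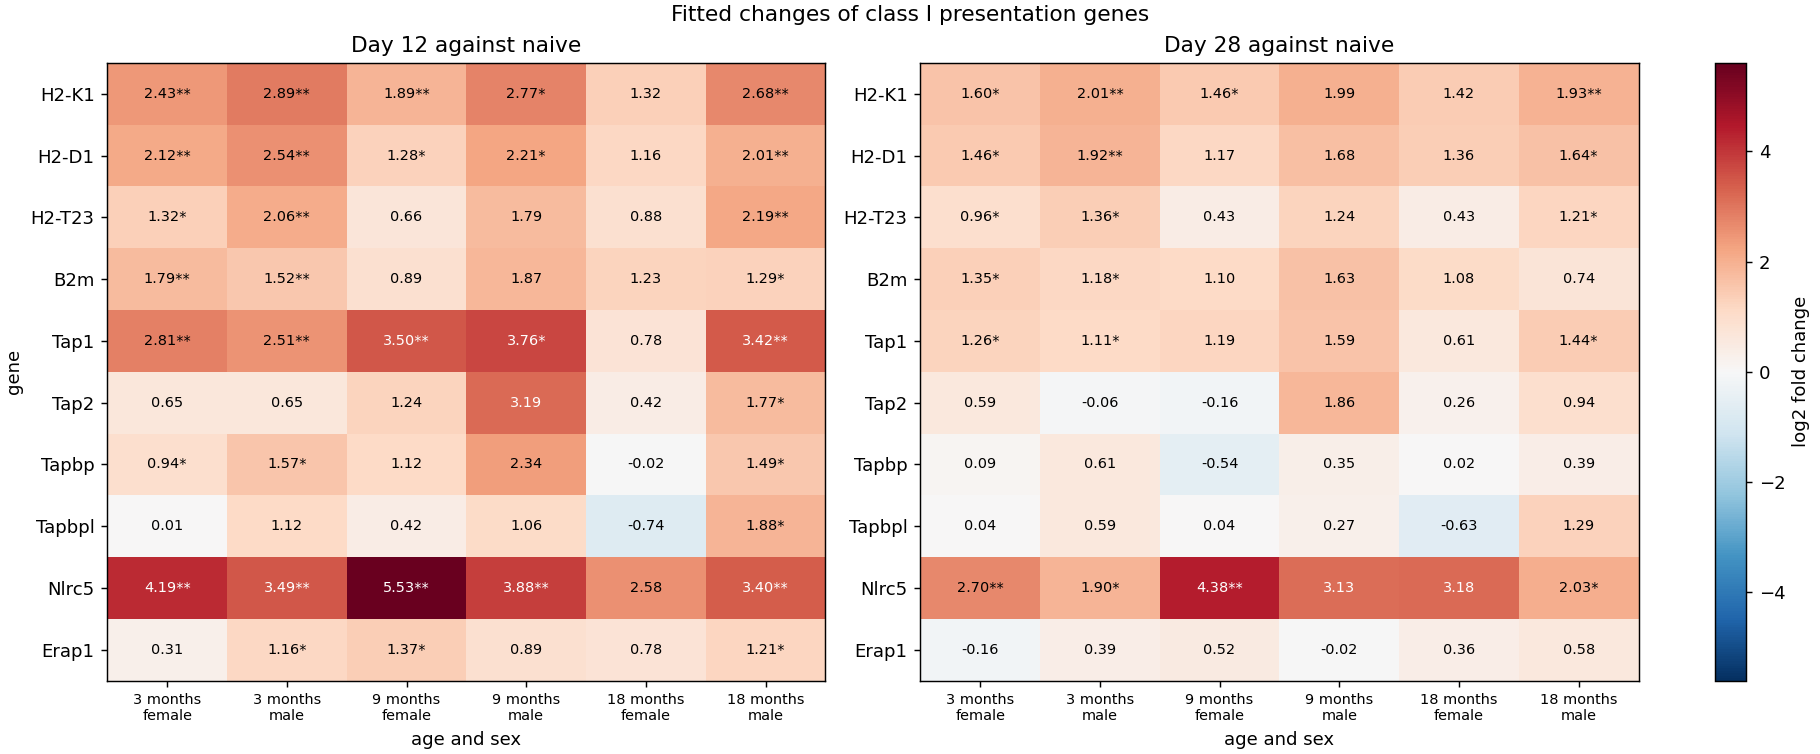
Fitted log2 fold change of the 10 genes against naive microglia at day 12 (left) and day 28 (right), with genes as rows and age and sex groups as columns. The mark ** stands for an adjusted p under 0.05 in the test against a 2-fold change and * for the plain test alone, and the 18-month female columns hold no mark.

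Of the transporter subunits, Tap1 passed the test against a 2-fold change in 4 of 6 groups and Tap2 in 0. Tap1 rose from 29.4, 32.1, 26.9 and 28.4 CPM in naive 3-month females to 179, 205, 357 and 90 CPM at day 12, and from 25, 44.4 and 33.8 to 229, 173, 168 and 224 CPM in 3-month males. At 9 months it was at 20.4, 43.6 and 38.7 CPM in naive females and 219.6, 388 and 556 CPM at day 12. No day 12 library overlapped the naive ones in these 3 groups. The log2 fold change of Tap1 was 2.81 ± 0.32, 2.51 ± 0.22 and 3.50 ± 0.39 in these groups and 3.42 ± 0.23 in 18-month males, all past the test against a 2-fold change (edgeR glmTreat, adjusted p from 1.04e-06 to 4.85e-04).

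In 9-month males Tap1 was at 27.5 and 25.9 CPM in naive and 870.5, 67.3, 238 and 274 CPM at day 12, and in 18-month females at 148, 39.3 and 41.6 CPM in naive and 50.7, 38.5, 245 and 176 CPM at day 12. Library 1 of the former day 12 group was the highest of all 62, and in the latter the groups overlapped. Tap2, the partner subunit, ranged over 9.98 to 69.2 CPM in naive libraries (median 24.2), between 21.6 and 655 CPM in day 12 libraries (median 45.9), and between 22.1 and 183 CPM in day 28 libraries (median 33.5). It did not pass the test against a 2-fold change in any group and passed the plain test in 18-month males, at 1.77 ± 0.32. The difference between Tap1 and Tap2 was not tested.

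The loading factors and the trimming enzyme passed the test against a 2-fold change in no group. Tapbp, which bridges the transporter and the heavy chain, ranged over 78.4 to 418 CPM in naive libraries (median 111), between 118 and 1823 CPM in day 12 libraries (median 211), and between 111 and 306 CPM in day 28 libraries (median 140.5). It passed the plain test in 3 of 6 groups (3-month females at 0.94 ± 0.29, 3-month males at 1.57 ± 0.30 and 18-month males at 1.49 ± 0.27) and the test against a 2-fold change in none. Tapbpl, a peptide editor, ranged over 4.95 to 111 CPM in naive libraries (median 21.4), between 16.9 and 111 CPM in day 12 libraries (median 37.1), and between 9.05 and 86.9 CPM in day 28 libraries (median 32.3) and passed the plain test in 18-month males alone, at 1.88 ± 0.47. Erap1, the peptide-trimming enzyme, ranged over 50.4 to 101 CPM in naive libraries (median 62.3), between 68.7 and 184 CPM in day 12 libraries (median 135), and between 51 and 119.8 CPM in day 28 libraries (median 82). It passed the plain test in 3-month males (1.16 ± 0.20), 9-month females (1.37 ± 0.23) and 18-month males (1.21 ± 0.23).

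Nlrc5, the transactivator, had the highest mean log2 fold change of the 10 genes at day 12, 3.84 over the 6 groups. In 3-month females it was at 5.88, 5.78, 1.16 and 3.76 CPM in naive and 100.3, 87.2, 84.9 and 36.7 CPM at day 12. In 3-month males it was at 4.43, 6.9 and 8.02 CPM in naive and 111, 54.7, 51.2 and 72.3 CPM at day 12. Every day 12 library lay above every naive library in both sexes.

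At 9 months Nlrc5 was at 0, 1 and 5.29 CPM in naive females and 54.1, 124 and 107 CPM at day 12, and at 4.02 and 5.1 CPM in naive males and 77.7, 25, 119.9 and 47.9 CPM at day 12. At 18 months it was at 12.5, 8.65, 4.54 and 6.43 CPM in naive males and 77.9, 53.8 and 122 CPM at day 12. In these 3 groups as well the day 12 and naive libraries did not overlap. Naive levels lay near the floor of 3 counts in some libraries, so that the size of the fold is uncertain. The log2 fold change passed the test against a 2-fold change in all 5 of the groups named, from 3.40 ± 0.38 in 18-month males to 5.53 ± 0.79 in 9-month females (edgeR glmTreat, adjusted p from 3.89e-06 to 0.0192). The call in 9-month males was lost without either of the 2 naive libraries, whereas without day 12 library 2 the members called in that group numbered 3 in place of 1, as they did with DESeq2. Without day 12 library 1 of the 9-month males the count stayed at 1, and without naive library 1 of the 9-month females the count there stayed at 3.

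In 18-month females Nlrc5 was at 5.32, 10.9 and 2.99 CPM in naive and 7.31, 9.59, 77.7 and 55.2 CPM at day 12, so that libraries 1 and 2 lay within the naive range and libraries 3 and 4 above it. Its log2 fold change was 2.58 ± 0.81 and did not pass. Within the first collection day, with 2 day 12 libraries and 1 naive library of uncorrected counts, the median log2 difference of the 10 members in 18-month females was -0.67 and 4 of 10 were above 0. Within the second day, with 2 libraries on each side, it was 1.76 and 10 of 10 were above 0. In 18-month males the same medians were 1.66 and 2.09. Leaving out any 1 library of the 18-month females gave no call among the 10 members. On the first day the 10 differences ran from -2.82 for Tapbpl to 0.68 for Erap1. Fits of all groups to 1 collection day alone were added after the data were seen. On the second day such a fit called 4 members in 18-month females at day 12 (1.53% of all genes called).

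**Figure D3:**
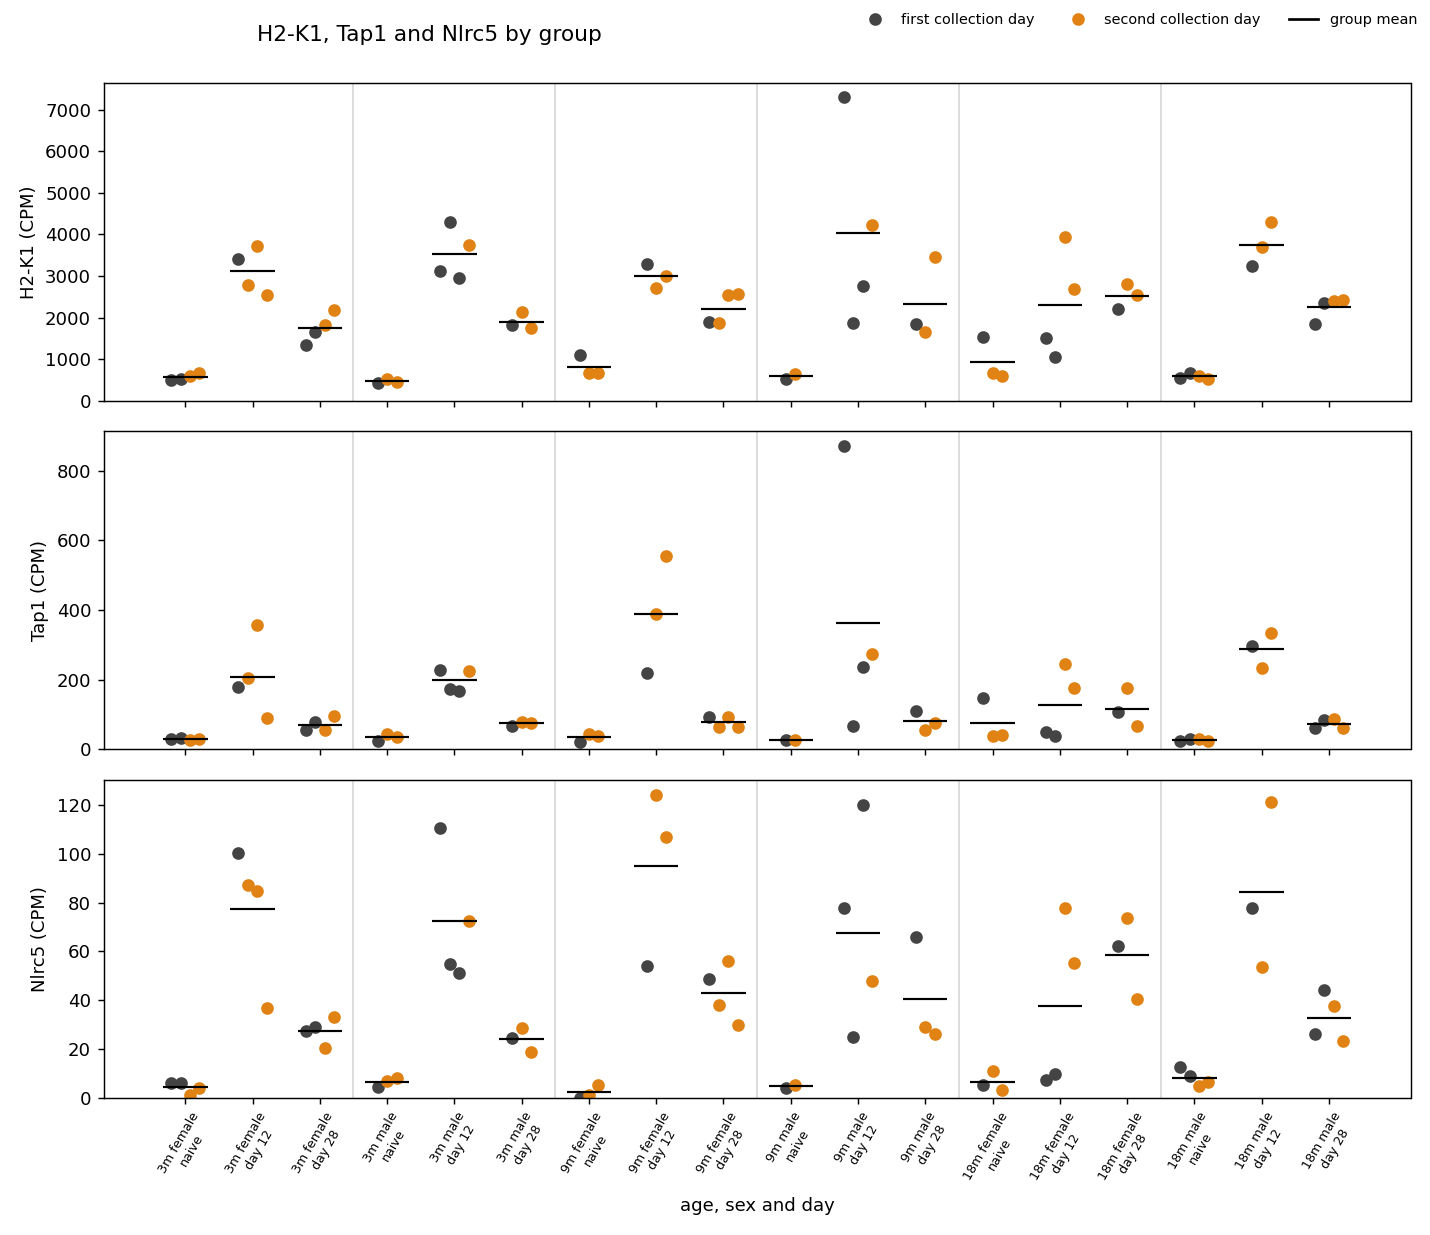
CPM of H2-K1, Tap1 and Nlrc5 (linear vertical axes from 0) in each of the 18 groups of age, sex and day, with 1 point per library coloured by collection day and a bar at the group mean. In 18-month females at day 12 the 2 libraries of the first collection day lie at 7.31 and 9.59 CPM of Nlrc5 and the 2 of the second day at 77.7 and 55.2 CPM.

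The second comparison asked what remained at day 28. The study reports that clinical inflammation had resolved by the late time point in the youngest mice. In the oldest mice of both sexes it reports signs of an inflammatory response that persisted. Against naive microglia, 5 of 60 combinations passed the test against a 2-fold change, all upward, beside 0.402% of all genes, and 19 of 60 passed the plain test, beside 1.49%. The median log2 fold change of the members was 1.14, beside 0.01 over all genes. In 37 of the 60, every day 28 library lay above every naive library of its group, against 8.66% of all genes. By the test against a 2-fold change the calls were 1 in 3-month females (0.44% of all genes called), 2 in 3-month males (0.701%), 1 in 9-month females (0.461%), 1 in 18-month males (0.684%) and 0 in 9-month males (0.129%) and 18-month females (0%). By the plain test they were 6 in 3-month females (2.79%), 6 in 3-month males (2.51%), 2 in 9-month females (0.958%), 5 in 18-month males (2.54%) and 0 in 9-month males (0.206%) and 18-month females (0%). DESeq2 called 0 members in both of the latter groups. In edgeR's plain test 6 and 4 of 10 had an unadjusted p under 0.05 there, beside 1127 of 11630 and 985 of 11159 genes tested.

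The 5 calls against a 2-fold change at day 28 were those of H2-K1, H2-D1 and Nlrc5. H2-K1 in 3-month males was at 1833, 2145 and 1741 CPM, a log2 fold change of 2.01 ± 0.17 against naive (edgeR glmTreat, adjusted p = 5.10e-04), and in 18-month males at 1845, 2351, 2409 and 2427 CPM, a log2 fold change of 1.93 ± 0.19 (adjusted p = 0.00432). H2-D1 in 3-month males was at 1647, 1771 and 1658 CPM (1.92 ± 0.17, adjusted p = 9.40e-04 by edgeR). Each of these groups lay above its naive libraries without overlap.

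Nlrc5 was at 27.3, 29, 20.3 and 33.1 CPM in 3-month females (2.70 ± 0.39, edgeR glmTreat, adjusted p = 0.00593) and at 48.5, 38, 55.9 and 29.6 CPM in 9-month females (4.38 ± 0.74, adjusted p = 0.0274). The call at 9 months was lost without any 1 of the 4 day 28 libraries, and without naive library 2 or day 12 library 3. All 21 day 28 libraries lay above all 19 naive libraries in Nlrc5, and 20 of 21 did so in H2-K1, H2-D1 and B2m. By the plain test Tap1 rose in 3-month females (1.26 ± 0.30), 3-month males (1.11 ± 0.23) and 18-month males (1.44 ± 0.21), H2-T23 in the same 3 groups (0.96 ± 0.22, 1.36 ± 0.17 and 1.21 ± 0.20), and B2m in 3-month females (1.35 ± 0.26) and 3-month males (1.18 ± 0.13). Tap2, Tapbp, Tapbpl and Erap1 passed neither test in any group at day 28, with mean log2 fold changes of 0.57, 0.15, 0.27 and 0.28.

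Between day 12 and day 28, 16 of 60 combinations fell (edgeR glmQLFTest, adjusted p under 0.05) and none rose, beside 1.91% of all genes called in either direction. The calls were 3 in 3-month females (1.32%), 6 in 3-month males (3.4%), 2 in 9-month females (2.49%) and 5 in 18-month males (4.26%), with 0 in 9-month males and 18-month females (0% in each). In those last groups 3 and 0 of 10 members had an unadjusted p under 0.05, beside 1202 of 11630 and 528 of 11159 genes tested. DESeq2 called 1 and 0 members there (1.13% and 0.161% of all genes). In 22 of the 60, every day 12 library lay above every day 28 library of its group, against 6.49% of all genes. Tap1 fell in 4 of 6 groups, with 9-month females going from 219.6, 388 and 556 CPM at day 12 to 91.3, 65.3, 92.9 and 63.9 CPM at day 28 (-2.31 ± 0.34, edgeR glmQLFTest, adjusted p = 0.00288). H2-K1 and Nlrc5 each fell in 3 groups, H2-T23 and Erap1 in 2, and H2-D1 and Tapbp in 1. In 3-month males H2-K1 fell from 3134, 4298, 2961 and 3738 to 1833, 2145 and 1741 CPM without overlap (-0.88 ± 0.16, edgeR, adjusted p = 0.00366).

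B2m passed in no group between the 2 days, with log2 fold changes from -0.55 to 0.21, nor did Tap2 or Tapbpl. These counts moved with single libraries. In 3-month males the count of 6 was 2 without day 28 library 3 and 3 without day 28 library 1 or day 12 library 4. In 3-month females the count of 3 was 0 without day 28 library 3 and 1 without any other day 28 library or any 1 of day 12 libraries 1 to 3. In 18-month males the count of 5 was 2 without any 1 of day 28 libraries 1 to 3 or day 12 libraries 2 and 3, and 3 without day 12 library 1. In 9-month females the count of 2 was 4 without naive library 1 or day 12 library 1 and 1 without any other library of the group, and in 9-month males it was 1 without day 12 library 2. With uncorrected counts and no batch term the count over all groups was 3 in place of 16 (0.757% of all genes called in place of 1.91%), and with the replicate number as a block it was 7 (0.964%). It was 15 (2%) without the 18-month male library that carries 2 day labels and 11 (1.33%) with that library placed at day 12. In 18-month males alone the count of 5 was 4 without that library (4.83% of all genes called). It was 0 with that library placed at day 12 (0.851%).

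Whether the sexes differed was tested as the difference between the male and the female change at each age. No member passed for day 12 (0 of 30) or day 28 (0 of 30) at an adjusted p under 0.1 by edgeR's quasi-likelihood test, beside 0.0221% and 0.00276% of all genes, while 9 of 30 and 1 of 30 had an unadjusted p under 0.05 (7% and 4.74% of all genes). Of the 9 at day 12, 7 were at 18 months, 2 at 3 months and 0 at 9 months. Among all genes tested the numbers were 830 of 11907, 1126 of 12002 and 582 of 12364 in that order. DESeq2 called 1 member at day 12, Tap1 at 18 months, and 0 at day 28, beside 0.196% and 0.0496% of all genes. The lowest p was that of Tap1 at 18 months, where the male log2 change exceeded the female one by 2.65 ± 0.71 (SE; edgeR, adjusted p = 0.583). The difference was 1.75 ± 0.65 (adjusted p = 1) without naive library 1 of the 18-month females, 2.39 ± 0.69 (adjusted p = 0.83) without their day 12 library 1, 2.35 ± 0.66 (adjusted p = 0.918) without library 2 and 3.19 ± 0.70 (adjusted p = 0.0815) without library 3. On uncorrected counts of the second collection day alone it was 0.96 ± 0.60 (edgeR, adjusted p = 1). On those of the first day, with 1 naive library of the 18-month females, it was 5.40 ± 1.04. Both settings were chosen after seeing the data.

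Ages were compared at each day within a sex. Of 120 combinations 1 passed at an adjusted p under 0.1, beside 0.106% of all genes: Nlrc5 in females at day 28, higher at 18 months (62.2, 73.5 and 40.5 CPM) than at 3 months (27.3, 29, 20.3 and 33.1 CPM). The ranges did not overlap, and the log2 fold change was 1.10 ± 0.26 (edgeR, adjusted p = 0.0809, 0.698% of all genes called in that comparison). The call was lost without any 1 of the 4 libraries at 3 months and without 18-month library 2 or 3, where the adjusted p lay between 0.102 and 0.505. In the interaction of age with day no member passed (0 of 80, edgeR) beside 0.0655% of all genes. An unadjusted p under 0.05 was held by 7 of 80, beside 6.24% of all genes, and DESeq2 called 1 (0.499% of all genes).

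The other genes of the class I pathway, from a list of 40 genes in the table, were described by their counts over the same 6 groups. Of the immunoproteasome subunits and activators (Psmb8, Psmb9, Psmb10, Psme1 and Psme2), which cut proteins into peptides suited to class I, 9 of 30 tests rose at day 12 against a 2-fold change and 0 of 30 at day 28, beside 2.3% and 0.402% of all genes called in either direction. Of the other heavy chains, 13 of 66 rose and 1 fell at day 12, and 8 rose and 1 fell at day 28. The folding chaperones Calr, Canx and Pdia3 gave 0 of 18 and the cytosolic peptidases 1 of 24 at day 12, which lie near the share of all genes.

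H2-Q6, H2-M2 and H2-T10 had the highest mean day 12 change among the other heavy chains tested in all 6 groups. H2-Q6, a Qa-2 family heavy chain with close paralogs among which reads cannot be divided with certainty, had medians of 20.6 CPM in naive, 192 CPM at day 12 and 129 CPM at day 28, a mean log2 fold change of 3.32 at day 12, and rose in 5 of 6 groups. H2-M2 (0.63 to 10.1 and 18.9 CPM, mean 3.00) rose in 3 of 6, and H2-T10 (1.21 to 9.91 and 5.3 CPM, mean 2.97) in 2 of 6. The day 12 change of H2-M2 ranged from -2.04 to 5.46 over the groups. The naive medians of both genes lie near the floor of 3 counts (median 0.716 CPM), so that the size of these folds is uncertain. At the other end, Cd1d1, which presents lipids rather than peptides, went from a median of 12.8 to 1.63 CPM, a mean log2 fold change of -2.64, and fell in 1 of 6 groups, and Rfxap, a subunit of the RFX complex, had a mean of -0.54 with no call.

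**Figure D4:**
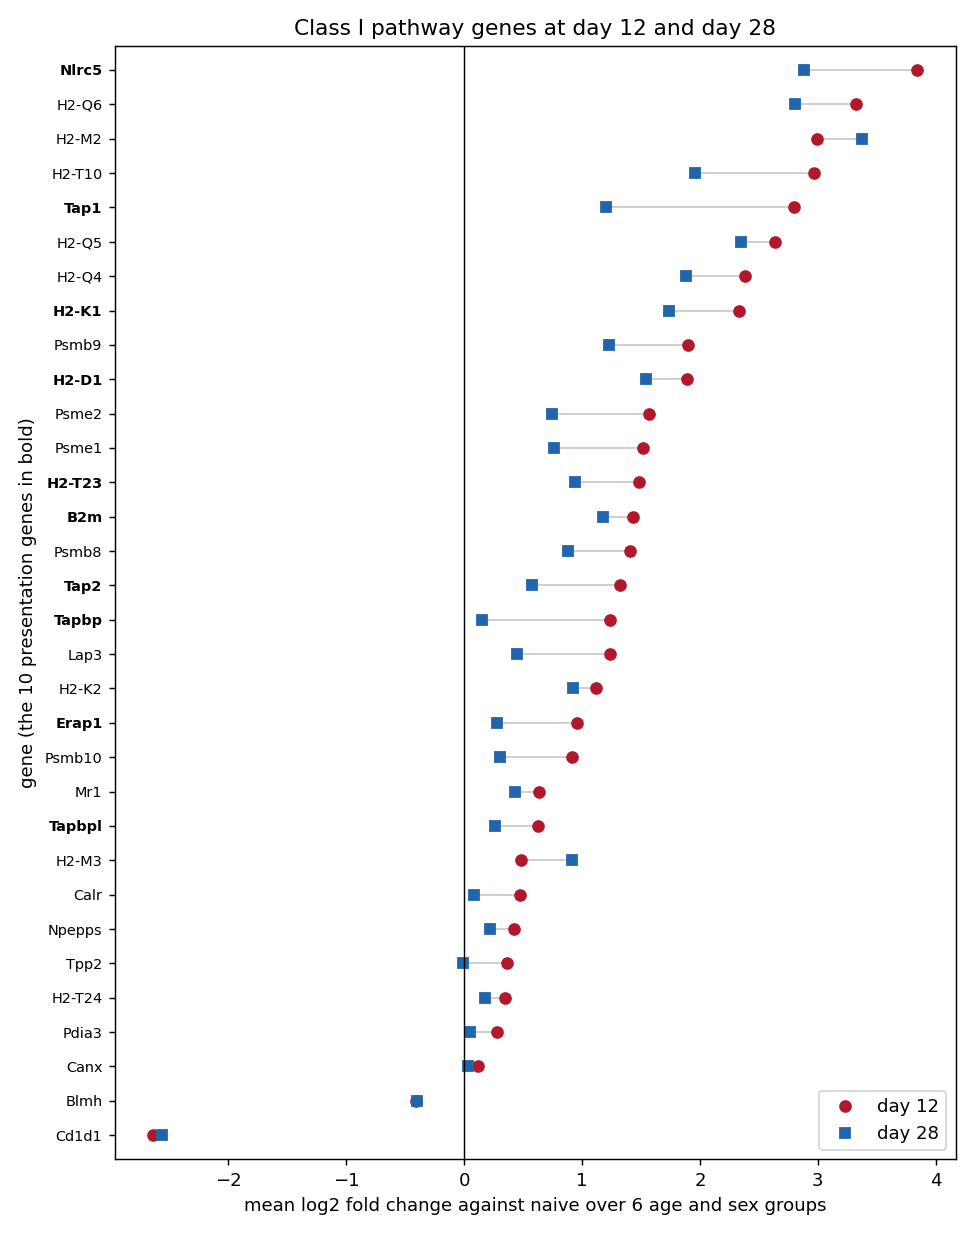
Mean log2 fold change against naive over 6 age and sex groups, at day 12 (red circles) and day 28 (blue squares), for the 10 presentation genes (bold) and the other heavy chains, proteasome subunits, chaperones and peptidases of the pathway tested in all 6 groups. Nlrc5 is highest at day 12 (3.84), Tap1 lies at 2.80 and Tap2 at 1.32, and Cd1d1 is lowest (-2.64).

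Genes with a pattern like that of the members were sought over the 18 group means, among 7894 genes with a mean of at least 10 CPM. Among the 6 highest Pearson correlations with the mean log2 CPM of the 10 members were those of Fgl2 (0.985), Cxcl16 (0.978), Psmb9 (0.977), AW112010 (0.976) and Axl (0.974). Fgl2 had medians of 28.6 CPM in naive, 363 CPM at day 12 and 134 CPM at day 28, and Axl, a receptor for apoptotic cell uptake, medians of 56.5, 252 and 137 CPM. Among the members themselves the correlation with their own mean was 0.982 for H2-K1 and 0.816 for Tapbpl. All points share the same libraries, and these values are a description.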

How the data were processed

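Microglia were profiled by RNA-seq of 600 sorted cells per library (SMART-Seq v4 cDNA, 16 PCR cycles, single-end reads). Per the labels and the study's methods, the authors ran bcl2fastq 2.20, aligned reads to mm10 with STAR 2.7.8a, counted them per gene with featureCounts, and adjusted the counts for collection day with ComBat_seq in R 4.2.2 before they were deposited. The deposited values are therefore whole counts, uncorrected in 1 table and batch-corrected in the other. The adjustment can move counts in small groups, and the uncorrected table was used as an alternative.

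Groups came from the sample titles. The labels do not say whether the libraries of a group came from separate animals. Per the study's methods, single eyes were sorted and the fellow eyes went to flow cytometry or tissue staining. The p-values measure the spread between these libraries. Counts were filtered with filterByExpr, scaled by TMM and fitted with edgeR 4.0.16 in R 4.3.3, once for each age and sex for the day comparisons. Day 12 and day 28 were tested against naive with glmTreat (fold change over 2, adjusted p under 0.05), day 28 against day 12 with glmQLFTest (adjusted p under 0.05), and sex, age and their interactions with day with glmQLFTest (adjusted p under 0.1), with Benjamini-Hochberg adjustment over all genes of the fit. Levels are CPM on TMM-scaled totals. Gene spans and exon lengths are those of GENCODE M21. DESeq2 1.42.0 and other settings served as alternatives. The statistics were tested on simulated data.

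All 10 members are named. Of the other pathway genes the 4 highest and 2 lowest mean changes at day 12 are named, and the 6 genes most like the members, except for 1 gene that is not reported here. Members and lists were chosen with earlier results of these data known.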

Additional observations from a re-analysis of the deposited data

Results flagged for a closer look

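In groups of 4 libraries, 6 of 90 combinations of a group and a member held a library whose gap to the others was large for the range of its group, and chance gives about 1 in 20. In 9-month males at day 12, library 1 was high in Tap2 (655 CPM, next 103), Tapbp (1820 CPM, next 298) and Tapbpl (111 CPM, next 45.7). In 9-month females at day 28, library 3 was high in Tapbp (153 CPM, next 142). H2-K1 was low in library 1 of 18-month males at day 28 (1840 CPM, next 2350), and Tapbpl was low in library 4 of the naive 18-month males (4.95 CPM, next 22.2).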

How the results depend on the processing

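The 20 members called at day 12 (2.3% of all genes called) numbered 34 with the plain test (8.77%). They numbered 17 to 25 under the other alternatives fitted to both collection days (1.54% to 2.4%). The 5 called at day 28 (0.402%) numbered 19 with the plain test (1.49%). They numbered 3 with uncorrected counts and no batch term (0.241%) and 1 in one fit over all 62 libraries (0.157%). Within single collection days, the median log2 difference of the members from naive was taken on uncorrected counts. On the first collection day it was -0.67 at day 12 and -0.03 at day 28 in 18-month females. In the other groups it ran from 1.13 to 2.11 and from 0.36 to 1.31. On the second collection day it ran from 1.36 to 2.09 and from 0.90 to 1.43 over all 6 groups. The 16 called between day 28 and day 12 (1.91%) numbered 3 with uncorrected counts and no batch term (0.757%), 4 in one fit over all libraries (0.872%) and 7 with the replicate number as a block (0.964%). They numbered 11 with uncorrected counts and collection day in the model (1.55%). With DESeq2 they numbered 21 (3.86%), as they did with no filter on low counts (2.63%). Single collection days hold fewer libraries, with single naive libraries in some groups, and the fits to them were added after seeing the data. With DESeq2 1 member was called in the sex by day 12 interaction (0.196% of all genes, in place of 0.0221%) and 1 in the age by day interaction (0.499%, in place of 0.0655%), in place of 0 members in each. With no filter on low counts these were 1 (0.444%) and 3 (0.493%), the sex by day 28 interaction had 1 in place of 0 (0.2% in place of 0.00276%), and ages at one day 4 in place of 1 (0.748% in place of 0.106%), so that calls over all genes rose as well. The age call was 0 with uncorrected counts and no batch term (0.0156%), and 0 in one fit over all libraries (0.15%). The cause of these shifts was not tested.

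Leaving out 1 library at a time gave 19 to 22 calls at day 12, 4 to 6 at day 28, 12 to 18 between day 28 and day 12, 0 to 1 for sex by day 12 and for age by day (1 without 18-month female day 12 library 3), 0 for sex by day 28, and 0 to 4 between ages (4 without 9-month male naive library 1). The median member change lay between 1.43 and 1.73 at day 12 and between 1.09 and 1.17 at day 28. Libraries with the same replicate number did not deviate together (mean r -0.0117 over 464 pairs, against 0.00462 over 1348 other pairs), so that the block is no pairing; it gave 17 calls at day 12 and 4 at day 28. Depth limits Nlrc5 in naive libraries most, where 3 counts are worth up to 1.27 CPM on TMM-scaled totals.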
